A study of Mus musculus with 6 samples.

Results

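The genes examined here encode the zona pellucida and the egg surface proteins that sperm meet: Zp1, Zp2 and Zp3, the glycoproteins of the zona, Astl, the egg protease ovastacin, Cd9 and Cd81, a pair of tetraspanins, and Izumo1r, the egg receptor JUNO. They were chosen by symbol among the genes with an Ensembl mouse identifier, which gave 7 members of 53700 such genes. The 6 samples were pools of metaphase II (MII) oocytes from ICR mice aged 42 to 45 weeks, primed with PMSG, a gonadotropin that makes follicles grow, and each pool held 20 oocytes from 3 mice. In the IVM group (n = 3), immature oocytes stripped of their cumulus cells with a pipette had been matured in M16 medium for 12 h. In the IVO group (n = 3), the mice had also received hCG, which triggers ovulation, and oocytes matured in the body were taken from the oviduct 14 h later and freed of cumulus cells with hyaluronidase. Immature oocytes were not analysed here, so the level from which each group started is not known. All animals were aged, so the differences below are between ways of maturation in aged mice and not between ages.

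The zona pellucida is the glycoprotein coat of the egg, in which ZP2 and ZP3 build long filaments and ZP1 links the filaments to each other. Its mRNAs are made in large amounts while the oocyte grows, under the control of the transcription factor FIGLA, and are removed during meiotic maturation, when transcription is silent and stored mRNAs are either polyadenylated and translated or lose their tails and decay. After fertilization, ovastacin released from the cortical granules cuts ZP2, and sperm no longer bind. On the plasma membrane, JUNO binds IZUMO1 of the sperm, and CD9 and, to a lesser degree, CD81 are needed for the fusion of the gametes.

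The ends of these mRNAs are shown because the libraries were primed on the poly(A) tail and because the 3′ UTR holds the signals that mark maternal mRNAs for storage or decay. Each line gives 30 bases around the last AATAAA, a polyadenylation hexamer, of the canonical transcript (GENCODE M39, GRCm39). Bases run 5′ to 3′ on the strand of the gene, with the hexamer AATAAA in capitals.
Zp1: ttaaatggactcAATAAAccattgtttgaa
Zp2: attggacttgcaAATAAAgagactgcagtt
Zp3: tatcccttccgcAATAAAagaagaaactca
Astl: ggaaaaggtagaAATAAAgttgggtgtttg
Cd9: aatttgatacatAATAAAagattataacag
Cd81: aaacagtcatttAATAAAggaggaaaaaaa
Izumo1r: catggtaccttcAATAAAaggctaggaaac
All 7 members carry this hexamer in their last 60 bases, as do 63.2% of the 10136 tested protein-coding genes with an annotated 3′ UTR. The annotated 3′ UTR is 34 bases long in Zp1, 49 in Zp2 and 13 in Zp3, where the hexamer begins inside the coding sequence. Of the 10136 genes, 62 have a shorter 3′ UTR than Zp1, 113 a shorter one than Zp2 and 10 a shorter one than Zp3. The 3′ UTR is longer in the other members, with 333 bases in Izumo1r, 414 in Cd9, 561 in Cd81 and 877 in Astl.

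The measured level of 6 of the 7 members was lower in IVO than in IVM oocytes, and for these 6 all IVO samples lay below all IVM samples. Zp2 was furthest below IVM, with an IVM mean 14.1 times the IVO mean, followed by Zp3, Cd9, Zp1, Izumo1r and Astl. Expression was measured as FPKM, the fragments on a gene per kilobase of transcript and per library size, as the authors deposited it. The limma test of IVO minus IVM used log2(FPKM + 1), a scale that understates the change of low genes, for 18818 genes and loci whose mean FPKM reached 1, all 7 members among them, and a DEG had |log2FC| ≥ 1 and a Benjamini-Hochberg adjusted p under 0.05. By this rule 6 members were lower in IVO, 0 were higher and 1 (Cd81) was not called, while 17.9% of all tested genes were lower and 0.606% were higher. All IVO samples lay below all IVM samples in 32.6% of all tested genes, and above them in 9.62%. The median log2FC of the 7 members was -2.43, beside a median of -0.30 for all tested genes and -0.18 for the 13154 with an Ensembl identifier.

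The shift of all genes depends on how libraries are scaled. With median-ratio scaling the median of all tested genes was -0.04, and 11.3% of them were lower and 2.05% higher. With quantile normalization these shares were 8.4% and 5.83%, and with libraries scaled to 12 oocyte markers, an alternative chosen after the data were seen, 7.83% and 7.99%. The median of all genes then lay at 0.17 and 0.20. With each library's trend with gene length removed, 8.03% were lower and 2.96% higher. In a pool, fewer oocytes with a transcript and less of it in each oocyte cannot be told apart, and neither can fewer mRNAs and shorter poly(A) tails, since the SMART-Seq v4 kit starts cDNA at the tail.

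The spacing of low FPKM values gave an inferred depth of 16400000 to 19100000 fragments in IVM samples and 17800000 to 18200000 in IVO samples. The inferred mean fragment length was 200 to 215 bases in IVM and 250 to 265 in IVO, with no overlap between the groups. The summed FPKM was 1826738 to 2111776 in IVM and 1560813 to 1643682 in IVO. Oocyte identity was checked by the 12 oocyte markers, all of which were tested. Their summed level was 26128 to 32855 FPKM in IVM and 25362 to 29780 FPKM in IVO, a sum carried mostly by Oosp1, Dppa3 and H1f8. The median log2FC of the 12 was -0.42, 11 of them were below 0, and Oosp1, an oocyte-secreted protein and the most abundant, had the positive one (0.18, limma adjusted p = 0.483). Bmp15, an oocyte growth factor, had a log2FC of -0.98 (limma adjusted p = 0.012), just under the fold threshold. Nlrp5 and Padi6, of the subcortical maternal complex, were called lower in IVO with log2FC of -1.99 and -1.38 (limma adjusted p = 0.0035 and 0.0085). Ooep, of the same complex, was not called (log2FC -0.85, limma adjusted p = 0.184), and its groups overlapped.

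**Figure D1:**
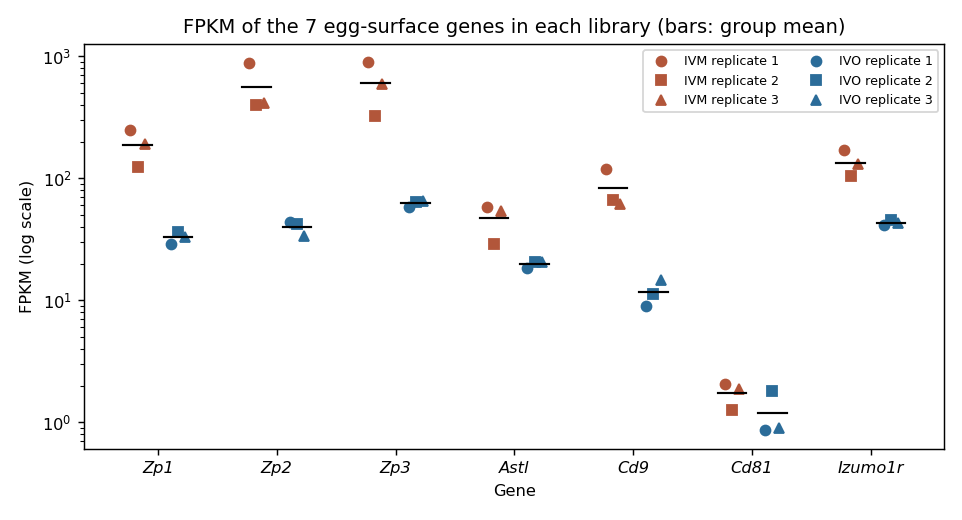
FPKM of the 7 genes (log axis) in the 3 IVM and 3 IVO samples, with points for samples and lines for group means. All IVO samples lie below all IVM samples except for Cd81, where the groups overlap, and IVM replicate 1 has the highest level of every gene among the IVM samples.

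Zp2, the zona protein whose cleavage ends sperm binding, is a gene of 18 exons on the minus strand of chromosome 7 (119725995 to 119744514, GRCm39). Its level was 874, 398 and 414 FPKM in IVM replicates 1 to 3 and 43.6, 42.4 and 33.6 FPKM in IVO replicates 1 to 3. Each IVM sample was above each IVO sample. The group means were 562 ± 271 FPKM in IVM and 39.9 ± 5.48 FPKM in IVO (SD, n = 3), with a log2FC of -3.69 (SE 0.32, limma adjusted p = 0.00119). Of the 18818 tested genes, 83 had a more negative log2FC, 52 of them with an Ensembl identifier.

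Zp3, the other filament protein, has 8 exons on the plus strand of chromosome 5 (136008953 to 136017478). It was measured at 892, 326 and 588 FPKM in the IVM samples and at 58.5, 64.4 and 65.1 FPKM in the IVO samples. IVM samples differed among themselves by up to 2.74 times and IVO samples by 1.11 times. The mean was 602 ± 283 FPKM in IVM and 62.7 ± 3.65 FPKM in IVO (SD, n = 3), a log2FC of -3.13 (SE 0.35, limma adjusted p = 0.00202).

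Zp1, which links the filaments, has 12 exons on the minus strand of chromosome 19 (10891651 to 10897996). Its level was 250.2, 123 and 193 FPKM in IVM and 29.2, 36.5 and 33.3 FPKM in IVO. The mean fell from 189 ± 63.6 FPKM in IVM to 33.0 ± 3.64 FPKM in IVO (SD, n = 3), a ratio of 5.72 between the means. The log2FC was -2.43 (SE 0.28, limma adjusted p = 0.00212).

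Together the zona mRNAs summed to 2016, 847 and 1195 FPKM in IVM and to 131, 143 and 132 FPKM in IVO. Their measured make-up differed as well as their sum. The shares are a description. None of the zona ratios below had an exact permutation adjusted p under 0.05, and none could. With 3 against 3 samples that test gives no p under 0.1. Zp1 made up 12.4%, 14.5% and 16.1% of the zona sum in IVM and 22.3%, 25.5% and 25.2% in IVO. Zp2 made up 43.4%, 47.0% and 34.7% in IVM and 33.2%, 29.6% and 25.4% in IVO, while Zp3 stayed between 38.5% and 49.4% in all 6 samples. The share of Zp1 was higher and that of Zp2 lower in every IVO sample than in any IVM sample, and the ranges of Zp3 overlapped.

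Ratios within a library do not depend on how libraries are scaled to each other. The ratio of Zp1 to Zp2 was 0.286, 0.310 and 0.466 in IVM and 0.670, 0.860 and 0.991 in IVO, 2.40 times higher in IVO. The ratio of Zp1 to Zp3 was 0.281, 0.378 and 0.328 in IVM and 0.500, 0.566 and 0.511 in IVO. Neither ratio overlapped between the groups. An exact two-sided permutation test gave p = 0.1 for each, the smallest p that 3 against 3 samples allow, and 0.12 after Benjamini-Hochberg adjustment over the 6 ratios computed. The ratio of Zp2 to Zp3 overlapped, with 0.980, 1.22 and 0.704 in IVM and 0.745, 0.659 and 0.515 in IVO (exact permutation p = 0.2, adjusted p = 0.2).

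**Figure D2:**
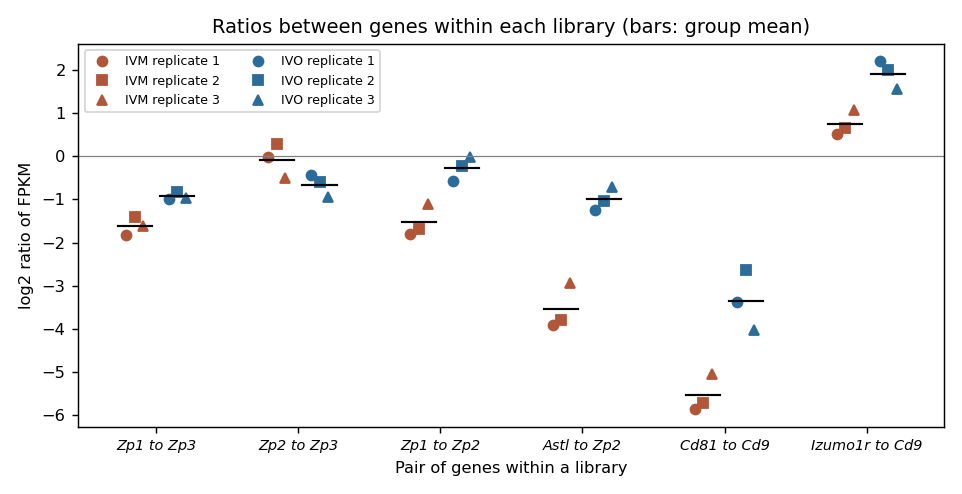
Ratio of the FPKM of 2 genes within each library (log axis) for the 6 ratios, in the 3 IVM and 3 IVO samples. The groups overlap only for Zp2 to Zp3, and the groups lie farthest apart for Astl to Zp2, which is 5.84 times higher in IVO.

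Astl, which encodes the protease that cuts ZP2, was also lower in IVO, with a log2FC closer to 0 than those of the zona genes. It has 9 exons on the plus strand of chromosome 2 (127180559 to 127199571) and was measured at 58.4, 28.8 and 54.3 FPKM in IVM and 18.4, 20.7 and 20.6 FPKM in IVO. The groups did not overlap, and IVM replicate 2 came closest to the IVO samples. The mean was 47.2 ± 16.04 FPKM in IVM and 19.9 ± 1.299 FPKM in IVO (SD, n = 3), and the log2FC was -1.14 (SE 0.29, limma adjusted p = 0.0295). This call is near both thresholds and held in 5 of 18 alternatives. It was lost without IVM replicate 1 (adjusted p = 0.0941), IVM replicate 3 (0.0913), IVO replicate 1 (0.0818), IVO replicate 2 (0.0720) or IVO replicate 3 (0.0636), and with median-ratio scaling (log2FC -0.83, limma adjusted p = 0.0744).

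The ratio of Astl to Zp2 was 0.0668, 0.0725 and 0.131 in IVM and 0.422, 0.487 and 0.614 in IVO, a difference of 2.55 on the log2 scale (exact permutation p = 0.1, adjusted p = 0.12). Every IVO sample was above every IVM sample.

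Cd9, the tetraspanin of the egg microvilli, has 8 exons on the minus strand of chromosome 6 (125437210 to 125471778). Its level was 120 FPKM in IVM replicate 1, 65.9 in replicate 2 and 61.9 in replicate 3, against 8.95, 11.3 and 14.8 FPKM in IVO. All IVM samples were above all IVO samples, and the means of 82.6 ± 32.5 and 11.7 ± 2.92 FPKM (SD, n = 3) differed 7.07 times. The log2FC was -2.68 (SE 0.31, limma adjusted p = 0.00224).

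Cd81, its close relative, was a low transcript in these pools, and no difference was called. It has 8 exons on the plus strand of chromosome 7 (142606314 to 142621672) and was measured at 2.06, 1.26 and 1.88 FPKM in IVM and 0.86, 1.82 and 0.90 FPKM in IVO. The groups overlapped, since IVO replicate 2 was above IVM replicate 2. These values rest on an inferred 32 to 48 fragments per IVM sample and 20 to 42 per IVO sample, and for IVO replicate 1 the exact 95% Poisson interval of 12.2 to 30.9 fragments covers 0.529 to 1.34 FPKM, counting error only. The log2FC was -0.33 (95% interval -1.003 to 0.34, limma adjusted p = 0.446). At this level the pseudocount of 1 bounds how far a log2FC can fall, so the interval was not set against the change of Cd9, and with a pseudocount of 0.1 the log2FC was -0.55 (SE 0.46). With quantile normalization and with scaling to oocyte markers the log2FC was 0.11 and 0.03.

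The ratio of Cd81 to Cd9 was 0.0172, 0.0191 and 0.0304 in IVM and 0.0961, 0.160 and 0.0610 in IVO, 4.55 times higher in IVO (exact permutation p = 0.1, adjusted p = 0.12). Cd9 was the more abundant of the pair in each of the 6 samples.

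Izumo1r, which encodes JUNO, a member of the folate receptor family held in the membrane by a GPI anchor, has 5 exons on the minus strand of chromosome 9 (14797110 to 14815245). It was measured at 171, 104 and 130 FPKM in IVM and 41.1, 45.3 and 43.3 FPKM in IVO. The groups did not overlap, and the means were 135 ± 33.7 and 43.2 ± 2.13 FPKM (SD, n = 3), with a log2FC of -1.59 (SE 0.22, limma adjusted p = 0.00399). The ratio of Izumo1r to Cd9 was 1.42, 1.57 and 2.099 in IVM and 4.59, 3.997 and 2.93 in IVO, 2.25 times higher in IVO (exact permutation p = 0.1, adjusted p = 0.12). Every IVO sample was above every IVM sample in this ratio.

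**Figure D3:**
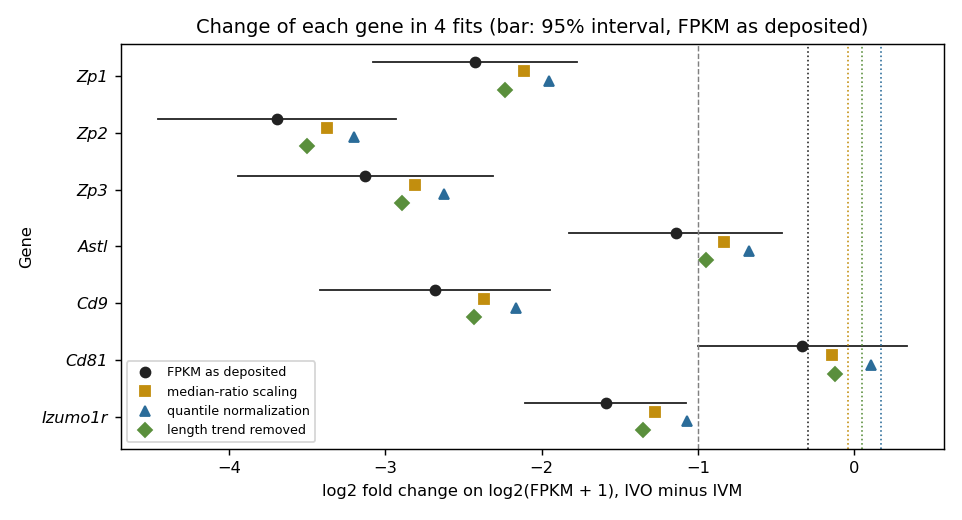
Log2FC (IVO minus IVM, log2(FPKM + 1) scale) of each gene in 4 fits, with the limma 95% interval drawn for the FPKM as deposited. Dotted vertical lines mark the median of all tested genes in each fit and the dashed line a log2FC of -1, and Zp1, Zp2, Zp3 and Cd9 lie left of the dashed line in all 4.

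The fall of Zp1, Zp2, Zp3 and Cd9 was larger than the shift of all genes under each scaling. With median-ratio scaling their log2FC were -2.11, -3.37, -2.81 and -2.37, and these 4 genes were called in all 18 alternatives. Izumo1r was called in 17 of 18, and lay at -0.97 when libraries were scaled to the oocyte markers (limma adjusted p = 0.0151).

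The order of levels, compared per length, also differed between the groups. In IVM the order was Zp3, Zp2, Zp1, Izumo1r, Cd9, Astl and Cd81. In IVM the ranges of Zp3 and Zp2, of Zp1 and Izumo1r, and of Izumo1r and Cd9 overlapped, while Zp2 and Zp1, Cd9 and Astl, and Astl and Cd81 did not. In IVO the order was Zp3, Izumo1r, Zp2, Zp1, Astl, Cd9 and Cd81, and only the neighbours Izumo1r and Zp2, and Zp2 and Zp1, overlapped. Izumo1r thus stood below the 3 zona genes in IVM and between Zp3 and Zp2 in IVO. Among all Ensembl genes, Zp2 ranked 368 to 778 by FPKM in the IVM samples and 3082 to 3547 in the IVO samples, while Astl ranked 2927 to 4245 and 4567 to 4891.

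The spread among replicates was wider in IVM than in IVO for the 6 called members. IVM replicate 1 had the highest level of all 7 members, and replicate 2 the lowest of all but Cd9. The highest and the lowest IVM sample differed 2.20 times for Zp2, 2.03 times for Zp1, 2.03 times for Astl, 1.94 times for Cd9 and 1.64 times for Izumo1r. In IVO the same comparison gave 1.299, 1.25, 1.12, 1.65 and 1.10 times.

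Other genes of zona synthesis and of sperm binding were examined in 10 lists, which held 134 genes, 76 of them tested. Of the 76, 10 were called lower and 0 higher (13.2%), beside 18.5% of all tested genes called in either direction, and their median log2FC was -0.20. All tested genes include loci without an Ensembl identifier, while the listed genes have one. The 13154 tested genes with an Ensembl identifier had a median of -0.18. Of the 10136 tested protein-coding genes with an annotated 3′ UTR, 14.2% were called lower, a share close to that of the lists. With quantile normalization 13 and with scaling to oocyte markers 14 of the 76 were called, in either direction. With quantile normalization Igsf3 and Snap23 were higher in IVO (log2FC 1.26 and 1.11) and Zp4-ps and Dmbt1 lower (-2.31 and -1.93). Umodl1, Tspan3, Pigq and Dpm2 then missed the fold threshold (-0.66, -0.64, -0.83 and -0.64). Among all tested genes that scaling called 8.4% lower and 5.83% higher. With scaling to oocyte markers the shares were 7.83% and 7.99%. The genes called with FPKM as deposited are given by name.

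Among 7 transcription regulators of zona genes, 6 were tested and 1 was called. Figla, which encodes the basic helix-loop-helix factor that activates all zona genes, was measured at 17.9, 6.61 and 8.61 FPKM in IVM and 1.33, 2.08 and 1.83 FPKM in IVO, with a log2FC of -2.03 (SE 0.36, limma adjusted p = 0.0090). As with the zona genes, the groups did not overlap and IVM replicate 1 was highest. The most abundant regulator, Tbpl2, an oocyte form of the TATA-binding protein, was at 29.5 to 51.6 FPKM in IVM and 48.7 to 64.1 FPKM in IVO (log2FC 0.56, limma adjusted p = 0.155).

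FIGLA binds E-boxes with the letters CANNTG. This motif, which reads alike on both strands, was found between 250 bases before and 50 bases after the start in all 5 members with an entry in the RefSeq promoter table (Zp3, Astl, Cd9, Cd81 and Izumo1r), and in 72.3% of all 32851 promoters of the table. Zp1 and Zp2 had no entry. The form CACGTG, one of the CANNTG words, was present in 1 of the 5 members, Zp3, and in 7.15% of all promoters. The 30 bases around it lie at chr5:135979912-135979941 on the plus strand of GRCm38.p6, the build of the RefSeq table, with the E-box in capitals.
Zp3 E-box: ttgaataggaatCACGTGgagtgtctttac

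Of 12 other genes with a ZP domain, 5 were tested and 3 were called lower. Zp4-ps, the mouse pseudogene of the fourth zona protein, was at 50.9, 51.1 and 39.1 FPKM in IVM and 5.71, 5.94 and 5.98 FPKM in IVO (log2FC -2.79, limma adjusted p = 0.0007). Dmbt1 fell from 7.38 to 13.4 FPKM in IVM to 0.62 to 1.40 FPKM in IVO (log2FC -2.41, limma adjusted p = 0.0024). Umodl1, the most abundant of the list, was called with a log2FC of -1.18 (limma adjusted p = 0.0256), a call that held in 7 of 18 alternatives. Tgfbr3 and Zpld1, with log2FC of 0.17 and 0.34, were not called.

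Of 8 glycan and processing enzymes, 5 were tested and 1 was called. B4galt1, a galactosyltransferase, was at 11.0, 12.1 and 9.72 FPKM in IVM and 1.95, 1.96 and 1.72 FPKM in IVO (log2FC -2.05, limma adjusted p = 0.0015), with little spread in either group. The most abundant, C1galt1c1, a chaperone of the enzyme that builds core O-glycans, was at 59.7 to 102 FPKM in IVM and 43.4 to 59.4 FPKM in IVO (log2FC -0.73, limma adjusted p = 0.087) and was not called.

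Cortical granule release and zinc transport were represented by 10 genes, of which 9 were tested and 1 was called. Napa, the alpha-SNAP protein that recycles fusion complexes, was at 9.27, 3.83 and 7.28 FPKM in IVM and at most 1.22 FPKM in IVO (log2FC -1.81, limma adjusted p = 0.0084). Rab27a, a small GTPase of secretory granules and the most abundant of the list, was at 358 to 656 FPKM in IVM and 359 to 440 FPKM in IVO (log2FC -0.21, limma adjusted p = 0.582). Of 6 genes for astacin proteases and their inhibitor, 2 were tested and 0 were called. Fetub, whose product fetuin-B inhibits ovastacin, was at 23.0 to 33.4 FPKM in IVM and 15.4 to 16.9 FPKM in IVO, and its log2FC of -0.81 (limma adjusted p = 0.0309) was under the fold threshold.

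Of 14 partners of tetraspanins, integrins and proteins of microvilli, 9 were tested and 0 were called, with a median log2FC of 0.11. Rdx, which encodes radixin, a linker of actin to the membrane, was at 2802 to 3369 FPKM in IVM and 3091 to 3416 FPKM in IVO. Of 29 other tetraspanins, 14 were tested and 1 was called, Tspan3 (log2FC -1.14, limma adjusted p = 0.0105, called in 12 of 18 alternatives), and the median of the list was -0.39. The most abundant of them, Tspan14, had a log2FC of -0.42 (limma adjusted p = 0.328). Itga3, an integrin subunit, had the most negative log2FC of these 2 lists, -3.85, but was not called (limma adjusted p = 0.132), since its IVM values of 132, 69.6 and 0.40 FPKM spread widely and overlapped the IVO values of 3.23, 0.01 and 0.02 FPKM.

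Folr2, the other tested folate receptor, was at 9.53, 19.2 and 4.92 FPKM in IVM and 4.07, 2.17 and 4.55 FPKM in IVO, and its log2FC of -1.27 was not significant (limma adjusted p = 0.090). Of 28 genes for the synthesis and transfer of GPI anchors, the anchor that holds JUNO, 19 were tested and 2 were called lower. These were Pigq and Dpm2, of the first steps of anchor synthesis, with log2FC of -1.30 and -1.12 (limma adjusted p = 0.0047 and 0.0138), called in 13 and 11 of 18 alternatives. Pigf, the most abundant, was at 884 to 1162 FPKM in IVM and 1407 to 1713 FPKM in IVO (log2FC 0.54, limma adjusted p = 0.0529). The median of the list was 0.07.

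**Figure D4:**
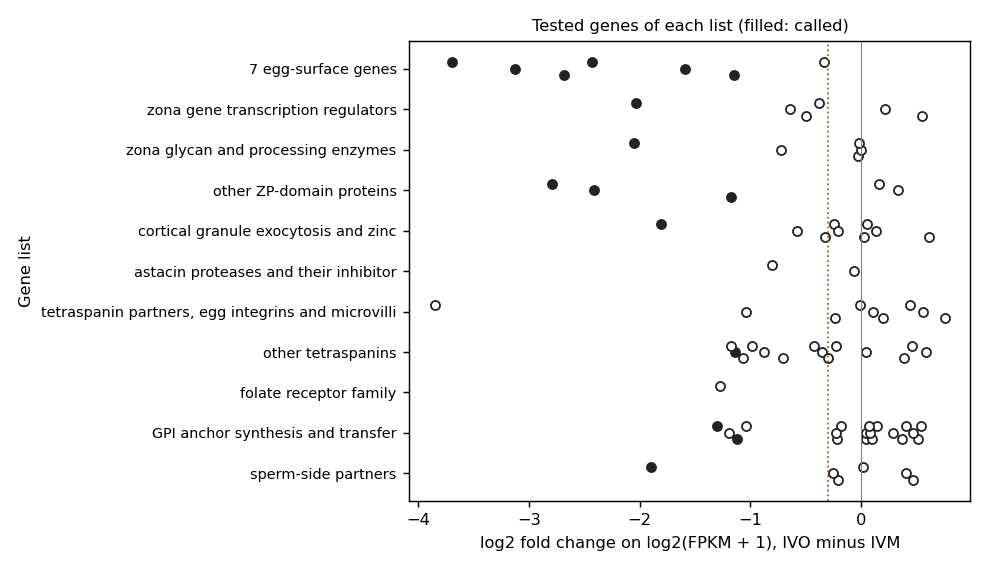
Log2FC (IVO minus IVM, log2(FPKM + 1) scale) of each tested gene by list, with filled points for called genes and a dotted line at the median of all tested genes, -0.30. The 6 called members in the top row span -3.69 to -1.14, and the 10 called genes of the other lists all lie left of -1.

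Cells around the oocyte were looked for by their markers. Of 20 cumulus and granulosa markers, 5 were tested and 1 (Nr5a2, log2FC -1.04, limma adjusted p = 0.0139) was called. Their summed level was 71.4 to 92.1 FPKM in IVM and 50.5 to 77.4 FPKM in IVO. Of these genes, Amh, Nr5a1 and Areg were at 0 in all 6 samples. Other markers of the same list were present, with Cyp19a1, the aromatase, at 16.3 to 18.8 FPKM in IVM and 17.7 to 23.1 FPKM in IVO, Fshr, the FSH receptor, at 6.14 to 16.3 and 10.5 to 13.8 FPKM, and Amhr2, the AMH receptor, at 6.86 to 27.9 and 3.14 to 21.9 FPKM. Each of these 3 overlapped between the groups and was not called (limma adjusted p = 0.546, 0.772 and 0.551). Has2, a gene of the expanded cumulus, was at 0.04 to 0.14 FPKM in IVM and 0.17 to 0.37 FPKM in IVO. Of other such genes, Tnfaip6 (0 to 0.14 and 0.34 to 0.49 FPKM) and Ptx3 (0 to 0.03 and 0.07 to 0.17 FPKM) were also higher in every IVO sample. Ptgs2 (0.04 to 0.19 and 0.16 to 0.50 FPKM) and Vcan (0.08 to 0.19 and 0.11 to 0.18 FPKM) overlapped. Has2 and these genes were too low to be tested. Of 6 oviduct markers, Pax8 was at 0 in all samples and 1, Ltf, was tested and called lower in IVO (log2FC -1.82, limma adjusted p = 0.0345, called in 6 of 18 alternatives). Blood markers summed to at most 1.04 FPKM in IVM and 5.82 FPKM in IVO, and their most abundant gene, the globin Hbb-bs, was at 0 in all IVM samples and at 0, 2.33 and 2.04 FPKM in IVO. The part of these cells in the differences of the members was not tested.

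The 3′ UTR, shown above for its length and hexamer, was set beside the change of all genes as a description. Among the 10136 tested protein-coding genes with an annotated 3′ UTR, the median log2FC was -0.16 and 14.2% were called lower. Among the 118 with a 3′ UTR under 50 bases, a class that holds Zp1, Zp2 and Zp3, the median was -0.48 and 25.4% were called lower. The bound of 50 lies just above the 49 bases of Zp2, and the zona genes count among the called genes of the class. This class is thus not independent of them. For 3′ UTRs of 50 to under 500 bases the median was -0.32 with 20.7% called lower, and for those of 500 bases or more it was -0.12 with 12.0% called lower. The zona genes had log2FC of -2.43, -3.69 and -3.13, all below the median of the class under 50 bases. These shares are descriptions with no test.

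The cytoplasmic polyadenylation element, by which stored mRNAs gain long tails during maturation, has the letters TTTTAT or TTTTAAT in the gene's strand. TTTTAT was in the 3′ UTR of none of the 7 members (0 of 7). TTTTAAT was found in Cd9 and Cd81, with 1 match each, and not in the other members. Of the 10136 genes, 67.3% hold at least 1 of the motifs. Genes with a motif had a median log2FC of -0.05 and those with neither had a median of -0.43, of which 10.2% and 22.4% were called lower, but the 3′ UTRs of these sets also differ in length, with medians of 1912 and 420.5 bases. Within 3′ UTRs of 50 to under 500 bases, the 709 genes with a motif had a median of -0.04 and 9.87% were called lower, and the 1706 with neither had a median of -0.48 and 25.2%. Cd9 and Cd81 hold a motif, and Cd9 was called lower while Cd81 was not called. Astl and Izumo1r hold neither and were called lower. The part of the motifs in these differences was not tested.

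Transcript length moves with these classes. The genes with a 3′ UTR under 50 bases had a median length of 1145.5 bases and those with 500 bases or more one of 3230 bases. With each library's trend with length removed, the medians of these classes were -0.15 and 0.09, and the zona genes kept their call. The part of the difference in fragment length between the groups was not tested.

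**Figure D5:**
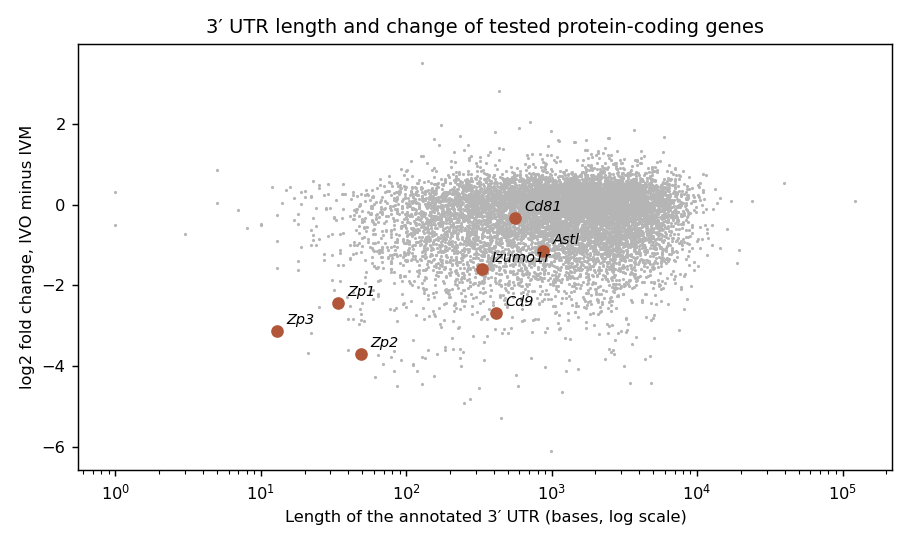
Log2FC (IVO minus IVM, log2(FPKM + 1) scale) of the tested protein-coding genes against the length of the annotated 3′ UTR in bases (log axis), with the 7 genes named. Zp1, Zp2 and Zp3 lie left of the bulk of genes, at 34, 49 and 13 bases, below most genes with 3′ UTRs of like length.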

How the data were processed

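Full-length cDNA was amplified with the SMART-Seq v4 kit and sequenced in paired ends. Per the study's methods and processing notes, the authors aligned reads to GRCm39 with HISAT2 2.1.0, estimated expression with RSEM 1.3.3, deposited FPKM per gene and sample, and tested counts with DESeq2 1.24.0. The deposited group means were not used. The 3 samples of a group are described as biological replicates.

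FPKM were tested as log2(FPKM + 1) with limma 3.58.1 (R 4.3.3; lmFit, eBayes with trend), two-sided, for rows with a mean FPKM of at least 1, adjusted over all 18818. The pseudocount understates the change of low genes. On simulated data with 18818 genes, this IVO against IVM comparison recovered 81.7% of changes of 2 and 89.6% of changes of 3 (log2). It also called 9 unchanged genes. The changed genes were drawn only from those with a mean log2(FPKM + 1) above 3, and the noise was normal and independent between genes. Recovery of low genes such as Cd81, and under a shift of many genes, was thus not covered. Fragment numbers were inferred from the spacing of FPKM values worth at most 5.5 fragments in 13829 genes with 1 transcript, of which 79.0% to 83.6% came out whole within 0.2 fragments. Because this rests on part of the genes and on an inferred fragment length, no count test was run. Ratios of 2 members were tested by exact permutation. Sequences and 3′ UTRs came from GENCODE M39, and promoters from RefSeq on GRCm38.p6.

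The members and lists were chosen with earlier results of these data known. Named were the members, the most abundant gene of each list and up to 4 called genes, and for each member the 2 genes most like it. Genes added beside these are examples chosen after their values were seen: Tgfbr3, Zpld1, Itga3, Izumo1, Spam1, Dcst2, Bmp15, Dppa3, H1f8, Has2, Tnfaip6, Ptx3, Ptgs2, Vcan, Pax8, Amh, Nr5a1, Areg, Cyp19a1, Fshr and Amhr2. The 18 alternatives covered the pseudocount, the filter, scaling, the trend, the replicate block, length, Ensembl genes only and each library left out.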

Additional observations from a re-analysis of the deposited data

How the results depend on the processing

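Zp1, Zp2, Zp3 and Cd9 stayed called in all 18 alternatives, with log2FC of -2.70 to -1.81, -3.89 to -3.07, -3.51 to -2.51 and -2.85 to -2.08. Izumo1r missed the fold threshold only when libraries were scaled to oocyte markers (log2FC -0.97), a setting chosen after the data were seen. Astl lost its call with no filter (log2FC -1.14), median-ratio scaling (-0.83), each library scaled to the same sum (-0.82), quantile normalization (-0.67), the length trend removed (-0.95, also with the replicate block) and scaling to oocyte markers (-0.54). With 1 library left out, its log2FC was -1.46 to -0.96, and the call was kept only without IVM replicate 2. The limma adjusted p of Astl was 0.0118 to 0.149 over the 18 alternatives. Cd81 was never called, and its log2FC turned to 0.11 with quantile normalization and 0.033 with scaling to oocyte markers. At a mean FPKM of at least 5 it was not tested. Of the other genes of the pathway, 10 were called, and 5 under the replicate block plus length correction, the one alternative beyond 1.5 times. This compares only counts of calls in either direction. With quantile normalization the called genes themselves changed, and some were higher in IVO, as given above. All 6 ratios kept their direction with the length trend removed. With each library left out, Zp2 to Zp3, the only ratio whose groups overlapped, kept its direction too. For the other ratios leaving out a library could not turn the direction, since their groups did not overlap. The log2 differences of all 6 ratios moved by less than the pooled SD within groups, and no threshold was set for them. The cause of these changes was not tested.

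The replicate numbers did not pair the samples: deviations from the group means of same-numbered samples correlated at -0.062, -0.018 and -0.11 across genes. With the replicate block, Astl lost its call (log2FC -1.14, limma adjusted p = 0.0557) and no other member changed its call. Depth limits Cd81 most, with 20 to 48 inferred fragments a sample, and 3 replicates a group limit every test.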

Other observations

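Of 18 genes listed for the sperm side of the interaction, 7 were at 0 in all 6 samples, 6 were tested and 1 was called. Izumo1, the ligand of JUNO, was at most at 0.13 FPKM. Adam2, which encodes the sperm protein fertilin beta, was at 68.0, 144 and 76.4 FPKM in IVM and 15.5, 29.1 and 29.3 FPKM in IVO (log2FC -1.90, limma adjusted p = 0.0117), and its groups did not overlap. Spam1, a sperm hyaluronidase, was at 12.6 to 16.7 FPKM in IVM and 18.6 to 21.4 FPKM in IVO (log2FC 0.47, limma adjusted p = 0.128), and Dcst2 at 7.24 to 10.4 and 6.18 to 9.82 FPKM (log2FC -0.21, limma adjusted p = 0.593).

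The genes whose log2(FPKM + 1) followed a member most closely over the 6 samples were found among 10380 genes by Pearson's r, given as a description with no p, since the samples form 2 groups and many genes differ between them. For Zp3 they were Wwtr1 and Izumo1r (r = 0.9988 for each), for Zp2 H4c8 (0.9997) and Paip2 (0.9988), and for Zp1 Mtfr1l and Zp3 (0.9985 for each). For Izumo1r they were Zp3 (0.9988) and Mtfr1l (0.9986), for Cd9 Hcfc1r1 (0.9993) and Leprot (0.9988), for Astl Tpt1 (0.9956) and Slc19a1 (0.9949), and for Cd81 Lmnb1 (0.986) and Plekhb2 (0.984). Between 1486 and 1529 genes reached r = 0.9 with Zp1, Zp2, Zp3, Cd9 or Izumo1r, beside 850 with Astl and 66 with Cd81.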
